A study of Mus musculus with 2 samples.

Results

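C1q macrophages with Arg1 were tumour macrophages whose droplets held transcripts of the complement protein C1q together with those of arginase 1. They were chosen on raw counts of unique molecular identifiers (UMIs, each standing for 1 captured transcript). A cell barcode counted as a member when it had at least 500 detected genes and at most 15% mitochondrial UMIs, and met 4 further limits. These were at least 5 UMIs summed over C1qa, C1qb and C1qc, at least 2 UMIs of Arg1, at most 1 UMI summed over the T cell genes Cd3d, Cd3e, Cd3g and Trac, and at most 5 UMIs summed over the keratins Krt8, Krt18 and Krt19. The rule gave 274 members, of 22472 barcodes that passed the gene and mitochondrial limits and of 26017 barcodes in all. The control library held 150 of them and the knockout library 124.

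C1q is the recognition part of the classical complement pathway, and tissue macrophages are its main source. Arg1 cleaves arginine into ornithine and urea, and macrophages that make much of it are known from tumours, where they can deprive T cells of arginine. Arg1 is also among the genes that macrophages switch on in low oxygen. Interferon-stimulated genes answer to type I interferons and carry antiviral functions, and tumour macrophages differ widely in how strongly they express them.

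The study grew KPC pancreatic cancer cells as orthotopic tumours, that is, in the mouse pancreas, and took the tumours at day 21. Control mice were labelled Porcnfl/fl, and their knockout littermates Csf1r-Cre;Porcnfl/fl. Porcn encodes the enzyme that attaches a lipid to Wnt proteins, a step needed for their release from the cell, and both groups carry the allele that Cre can delete. The Csf1r promoter drives Cre in monocytes, macrophages and other cells that express Csf1r, so the deletion is not limited to the cells described here. Tumour tissue from 5 mice of a genotype was combined, dissociated for 30 min at 37 °C in DNase I (0.1 mg/mL) with collagenase V at 1.5 mg/mL, and made into 1 single-cell 3′ library. There were therefore no replicates: each difference below lies between 2 libraries, genotype and library cannot be told apart, and no test between genotypes is given.

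The control library held 173934025 UMIs over 13766 barcodes and the knockout library 137527647 over 12251. Members had a median of 5692.5 UMIs in control and 6889.5 in knockout, and 1111659 and 1084408 UMIs in all. Intervals in parentheses are exact 95% intervals (Poisson for summed counts, conditional for their ratios and Clopper-Pearson for shares), and cover counting error only. Levels are UMI counts scaled to the total of the same cells (CPM). Log2 ratios add 1 UMI to each sum, and genes with at least 20 UMIs over both libraries were compared. A gene is said to rise or fall when it passed 2-fold. The libraries shared 46 barcode sequences, 38 of them after the filter, and none was a member in both. Called doublets were 4 control and 1 knockout members.

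The markers given for these cells were present in both libraries. Among members the rule genes stood at 3009 CPM (C1qa) and 5360 CPM (Arg1) in control, and at 3106 and 2862 CPM in knockout, as a description of what was selected. Csf1r, the receptor through which macrophages receive their survival factor, stood at 246 and 207 CPM and was seen in 89 control and 91 knockout members. Mmp12, macrophage elastase, stood at 3748 and 2444 CPM and was seen in 107 and 72 members. Lyz2 (lysozyme) was at 6862 and 4918 CPM, Cd68 at 541 and 835 and Adgre1, which encodes F4/80, at 132 and 112. The label of a macrophage therefore held, while many members had no UMI of Mmp12.

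Other cell types' markers were low in sum. The rule itself caps the T cell genes Cd3d, Cd3e, Cd3g and Trac and the keratins Krt8, Krt18 and Krt19, so the sums of those lists were partly fixed by the choice of cells. The T cell list gave 20.7 CPM in control and 13.8 in knockout, and of its genes outside the rule Trbc2 and Lat were at 0 in both. The neutrophil list gave 143 and 160 CPM with Ly6g and Cxcr2 at 0, and the list of conventional type 1 dendritic cells (cDC1) gave 166 and 110 CPM with Xcr1 and Flt3 at 0. Epithelial markers went from 238 to 137 CPM, plasma cell markers from 58.5 to 160, acinar markers from 15.3 to 116 and natural killer markers from 4.50 to 60.9, of which Gzma gave 31 UMIs in 3 knockout cells. Fibroblast markers went from 176 to 710 CPM, and 2 knockout members held more than 5 UMIs of 4 fibroblast genes, 1 of them with 82.9% of the Dcn (decorin) UMIs. Their part in the gene differences below was not tested, except where a value without the cells with fibroblast UMIs is given.

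Members made up 1.29% of filtered barcodes in control (1.09 to 1.51) and 1.15% in knockout (0.955 to 1.37), a ratio of 0.892 (0.698 to 1.14). Counted among C1q cells, meaning barcodes that met each part of the rule other than the one on Arg1, they numbered 150 of the 236 control C1q cells and 124 of the 256 in knockout. That was 63.6% (57.1 to 69.7) against 48.4% (42.2 to 54.7), a ratio of 0.762 (0.596 to 0.973). The intervals are over cells of 1 library each and say nothing of the spread between mice, and the second share is set by Arg1, which the rule used. Members held 59.5% of all Arg1 UMIs of the filtered control library (10009) and 52.2% of those of the knockout library (5943). They were 38.4% and 46.4% of the 391 and 267 barcodes with at least 2 Arg1 UMIs, the others being left out mostly by the C1q limit.

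Arg1 was graded among C1q cells. The median member held 22 Arg1 UMIs in control, with the middle 50% of cells between 9 and 49 and a highest cell of 241. In knockout the median was 12, the middle 50% lay between 5 and 38.25, and the highest cell held 209. The share of C1q cells with at least 30 Arg1 UMIs was 26.7% (21.2 to 32.8) in control against 13.7% (9.71 to 18.5) in knockout, and the share with 0 was 31.4% (25.5 to 37.7) and 45.3% (39.1 to 51.6). The control library therefore had more of its C1q cells at the top of the range and the knockout library more at 0. Since the rule chose members on Arg1, these are descriptions. The bins were set after the values had been seen.

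**Figure D1:**
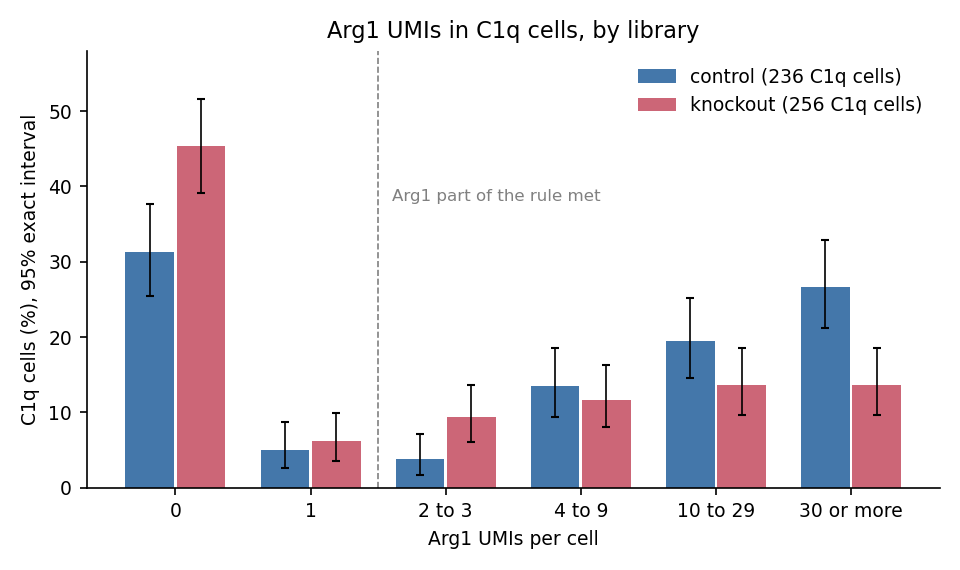
Arg1 UMIs in C1q cells: the x axis gives bins of Arg1 UMIs per cell and the y axis the percentage of the library's C1q cells (236 control, 256 knockout), with exact 95% intervals as bars. The dashed line marks the limit of 2 UMIs. The control library exceeded the knockout library in the bin of 30 or more (26.7% against 13.7%) and was below it at 0 (31.4% against 45.3%).

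Cells on both sides of the limits were few. There were 9 control and 24 knockout members with 2 or 3 Arg1 UMIs, in which Mmp12 stood at 635 and 1251 CPM. Just outside, 12 control and 16 knockout cells with 1 Arg1 UMI had Mmp12 at 34.2 and 121 CPM. Members with at least 10 Arg1 UMIs had it at 4309 and 3037 CPM. At the C1q limit, 20 and 11 members had 5 to 7 C1q UMIs, and 18 and 9 barcodes just outside had 3 or 4. Keratin UMIs left out 28 control and 18 knockout barcodes, with median depths of 18456.5 and 25056 UMIs, and the T cell genes left out 1 and 2.

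Within each library, members were compared with C1q macrophages that had 0 Arg1 UMIs, 74 in control and 116 in knockout. The comparison asks which genes accompany Arg1 among macrophages of one tumour pool, and it was made separately in each library. The cells without Arg1 were shallower, with median depths of 4339 and 5369 UMIs. In both libraries members were higher past 2-fold in 203 of 6768 genes (3.0%, Arg1 itself among them) and lower in 345 (5.1%). The median of all genes was -0.26 in control and -0.17 in knockout, and scaling by the median of ratios moved the counts to 283 higher and 190 lower. Of the 74 control cells without Arg1, 4 held 2975 of the 3007 UMIs of 4 fibroblast genes. The fibroblast list summed to 9500 CPM in control cells without Arg1 and 85.7 CPM in the knockout ones. No direction is therefore read for stromal genes such as Fn1 and Ctsk in this comparison.

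Members carried a hypoxia and glycolysis program that the cells without Arg1 had at a lower level. Of 23 listed genes 21 rose in both libraries and none fell, with a median log2 ratio of 1.65 in control and 1.65 in knockout. Hilpda, a lipid droplet protein induced by low oxygen, was at 396 CPM with and 41.3 without Arg1 in control, and at 493 and 44.4 in knockout (log2 ratios 3.18 and 3.43). Ero1l, which forms disulphide bonds in the endoplasmic reticulum, rose by 3.52 and 2.69. Egln3, an oxygen-sensing prolyl hydroxylase, rose by 3.93 and 2.67, and Adm, the vasodilator adrenomedullin, by 3.85 and 3.52. Bnip3 (mitophagy) rose by 2.75 and 2.27 and Vegfa, the vascular growth factor, by 2.38 and 2.34. The glucose transporter Slc2a1 rose by 1.78 and 1.73, and of the glycolytic enzymes Pgk1 rose by 2.38 and 2.12, Ldha by 1.42 and 1.59 and Gapdh by 1.61 and 1.67. P4ha1, a collagen prolyl hydroxylase subunit, had log2 ratios of 0.57 and 0.65 and did not pass. Ddit4, a stress-induced inhibitor of mTOR, had 0 UMIs in control cells without Arg1 and a log2 ratio of 0.65 in knockout.

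The hypoxia difference was not carried by a few cells. The summed list had a median of 13330 CPM per control member and 14145 per knockout member, against 3315 and 3355 in the cells without Arg1. In control the 25th percentile of members, 7611 CPM, lay above the 75th percentile of cells without Arg1, 4964. In knockout the same percentiles were 9039 and 7704. Hif1a itself, whose product drives many of these genes, was at 309 and 180 CPM in control, and at 211 CPM with and 211 without Arg1 in knockout. T cells of the same libraries held the hypoxia list at 9681 and 7961 CPM and Ly6c2 monocytes at 3135 and 4005 CPM, against 13787 and 16298 CPM in members. The T cell group was 177 control and 1725 knockout barcodes with no keratin limit, of which 10.2% and 8.29% were called doublets. The part of other cells' transcripts in its values was not tested. All filtered barcodes other than members, a mixture of cell types, held it at 11893 and 12616 CPM, and the cells without Arg1 at 4250 and 5067 CPM.

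Promoters of the hypoxia genes were read because they moved together. The core of the HIF response element, ACGTG, was searched on both strands in 300 bases around each RefSeq start (250 before and 50 after, GRCm38.p6). A palindromic CACGTG counts on both strands, and ACGTG shares no position with the interferon motif searched below unless both happen to match there. It was found for 14 of the 19 rising hypoxia genes that had a promoter in the table (73.7%; 21 genes rose), against 21.8% of 27025 genes and 31.4% of the genes compared between the libraries. A match describes letters and is not shown to be a bound site. The product of Hif1a is known to drive many genes of this list, so the share describes the list and does not bear on the rise with Arg1. The 3 promoters printed belong to an enzyme, a mitophagy gene and the lipid droplet gene that rose. Each is the 200 bases before the start, on the gene's strand, with matches in capitals, at chr7:46845604-46845803 (plus strand), chr7:138909507-138909706 (minus) and chr6:29272426-29272625 (plus).
Ldha: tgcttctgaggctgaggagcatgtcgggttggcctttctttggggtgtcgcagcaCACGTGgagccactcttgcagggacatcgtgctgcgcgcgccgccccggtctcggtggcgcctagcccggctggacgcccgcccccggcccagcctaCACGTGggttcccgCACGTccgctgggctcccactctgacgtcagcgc
Bnip3: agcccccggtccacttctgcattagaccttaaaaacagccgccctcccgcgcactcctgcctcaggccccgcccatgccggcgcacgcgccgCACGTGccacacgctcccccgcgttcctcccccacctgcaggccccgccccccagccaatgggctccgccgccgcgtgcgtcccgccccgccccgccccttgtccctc
Hilpda: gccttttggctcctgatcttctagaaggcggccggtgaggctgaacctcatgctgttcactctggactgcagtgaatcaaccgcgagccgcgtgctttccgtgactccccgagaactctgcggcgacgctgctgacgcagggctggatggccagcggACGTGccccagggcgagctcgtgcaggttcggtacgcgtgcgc

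Among genes with at most 25% of their UMIs in 1 cell in each library, those that rose most with Arg1, ranked by the smaller of the log2 ratios of the 2 libraries, were Mmp13, Inhba, Mmp12, Ccl24, Nos2, Slc7a2, Tnfrsf9, AA467197, Atp6v0d2 and Spp1. Mmp13 (collagenase 3; ENSMUSG00000050578, chromosome 9, 7272514 to 7283331 on GRCm38) was at 959 CPM with and 12.1 without Arg1 in control, and at 693 and 7.65 in knockout, log2 ratios of 6.04 (5.08 to 7.93) and 6.24 (5.27 to 8.13). Its neighbour Mmp12 (ENSMUSG00000049723, chromosome 9, 7344381 to 7369499) went from 211 to 3748 CPM in control and from 33.7 to 2444 in knockout. Inhba, the activin A subunit, rose by 4.74 and 4.63. Ccl24, a chemokine for eosinophils, was at 770 and 572 CPM in members and rose by 7.31 (5.83 to 13.61) and 3.90 (3.37 to 4.61), from 1 control UMI in the first case. Spp1, osteopontin, was at 4930 and 2758 CPM and rose by 3.78 and 3.19. Atp6v0d2, a subunit of the proton pump of lysosomes, rose by 3.23 and 5.79, and AA467197, also called Nmes1, by 3.39 and 3.28. Tnfrsf9 (4-1BB) had 75 UMIs in control members and 0 in control cells without Arg1, at least 9.26-fold higher against a floor of 3 counts. In knockout it rose by 3.30.

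Of the arginine genes, members also carried those that feed and compete with Arg1. Slc7a2, a cationic amino acid transporter that brings arginine into the cell, was at 858 and 568 CPM and rose by 3.56 (3.08 to 4.19) and 4.45 (3.82 to 5.35). Nos2, the inducible nitric oxide synthase, uses the same arginine. It was at 264 CPM with and 19.4 without Arg1 in control and at 214 and 10.7 in knockout, log2 ratios of 3.60 (2.77 to 4.99) and 4.13 (3.25 to 5.65). Sms (spermine synthase) rose by 1.15 and 1.18, while the other 10 of the 13 genes compared, Odc1 and Ass1 among them, did not pass in both libraries. Nos2 is often used as a mark of classically activated macrophages and Arg1 of alternatively activated ones. The list of classical (M1-type) genes did not follow Nos2. Of 11 compared, 2 rose and 2 fell in both libraries (3.0% and 5.1% of all genes), with medians of -0.66 in control and -0.68 in knockout. Of 11 genes of the alternative (M2-type) list 4 rose and 0 fell, with medians of 1.11 and 0.30. The control median of that list was 0.48 after thinning before the rule. After thinning each cell to 2000 UMIs, 30.2% of control members (22.7 to 38.6) and 28.0% of knockout members (20.1 to 37.0) had a Nos2 UMI, against 3.03% and 2.73% of cells without Arg1, and 0.625% and 0.0628% of T cells. Unthinned shares of members were 40.0% and 42.7%.

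Shares of cells told the same genes apart. With each cell thinned to 2000 UMIs, 139 control and 118 knockout members remained, 11 and 6 being shallower. The genes of this comparison were chosen after their values had been seen. Mmp12 was seen in 61.9% and 46.6% of members, 9.09% and 5.45% of cells without Arg1 and 3.13% and 0.753% of T cells, which should lack it. Slc7a2 was seen in 55.4% and 43.2% of members and 6.06% and 4.55% of cells without Arg1. Mmp13 was seen in 34.5% and 27.1% against 4.55% and 0.909%. Spp1 was seen in 75.5% and 57.6% of members, but also in 42.5% and 18.5% of T cells. Its share in cells without Arg1, 21.2% and 12.7%, was below that of the T cell barcodes, which had no keratin limit. Chil3, a chitinase-like lectin, was seen in 23.7% and 21.2% of members and in 0 of 66 and 0.909% of 110 cells without Arg1. The 0 allows a share of cells with a UMI of up to 4.55% at this depth (3 counts of the total), and before thinning 1 of the 74 cells had 1.

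**Figure D2:**
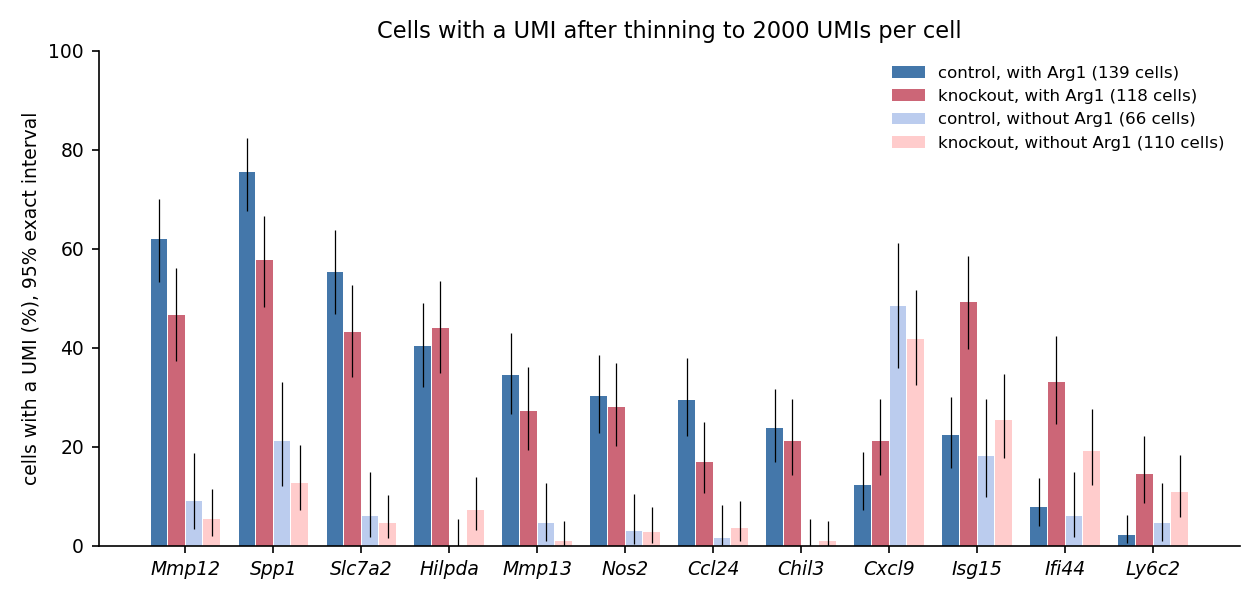
Percentage of cells with at least 1 UMI after thinning to 2000 UMIs, on the y axis for 12 genes, in members (139 control, 118 knockout) and C1q macrophages without Arg1 (66 and 110), with exact 95% intervals as thin lines. Mmp12 stood at 61.9% and 46.6% of members against 9.09% and 5.45% of cells without Arg1, while Cxcl9 stood at 12.2% and 21.2% of members against 48.5% and 41.8%.

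**Figure D3:**
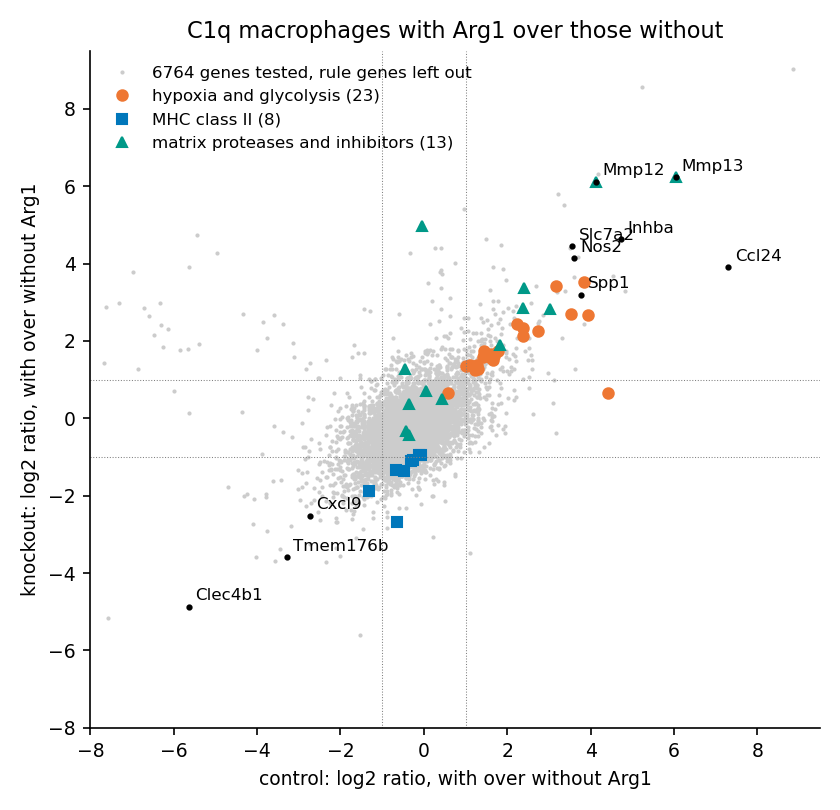
Log2 ratio of members over C1q macrophages without Arg1, in the control library (x axis) and the knockout library (y axis). Each point is a gene with at least 20 UMIs in each library, rule genes left out, dotted lines mark 2-fold, and colours mark 3 lists. Hypoxia genes lay past 2-fold in both libraries except Ddit4 and P4ha1, and MHC class II genes had medians of -0.39 and -1.21. Points low in control and high in knockout include stromal genes of the 4 control cells with fibroblast UMIs.

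Lipid handling, lysosome, iron and chemokine genes rose in part. Among all genes 3.0% rose in both libraries and 5.1% fell. Of 19 lipid-associated genes 7 rose in both libraries and 1 fell. Trem2, a lipid-sensing receptor, rose by 1.63 and 1.49, the fatty acid carrier Fabp5 by 1.79 and 3.03, Lgals3 (galectin 3) by 1.61 and 1.91 and Plin2 (lipid droplets) by 1.83 and 1.27. Apoe, the most abundant listed lipid carrier, had ratios of -0.45 and -0.86. Of 20 lysosomal genes the proteases Ctsd (2.13 and 1.66) and Ctsl (1.35 and 2.95) rose. Of 9 iron and heme genes 4 rose, namely the ferritins Fth1 (1.05 and 1.26) and Ftl1 (1.19 and 1.48), heme oxygenase Hmox1 (1.97 and 1.59) and the heme transporter Slc48a1 (1.82 and 1.84). Among 18 chemokines 8 rose and 1 fell, with Ccl6 at 2.24 and 2.09, the monocyte attractant Ccl2 from 321 to 1288 CPM and from 493 to 1146 CPM and Ccl9 at 1.53 and 1.61. Of 17 growth factor genes 6 rose and 2 fell. Those that rose included Pgf (placental growth factor) with 2.85 and 2.66 and Hbegf with 2.43 and 1.73. The sheddase Adam8 rose by 2.39 and 3.36.

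The cells without Arg1 had their own set of genes. Ranked and filtered as above, the largest falls with Arg1 were those of Clec4b1, Tmem176a, Tmem176b, Siglece, Klrb1b, St3gal6, Stap1, Cxcl9, Stard13 and Fgd2. Clec4b1, a C-type lectin, had 1 UMI in control and 4 in knockout members, against 87.4 and 133 CPM without Arg1 (log2 ratios -5.64 and -4.87). Tmem176b, a cation channel of antigen-presenting cells, was at 45.0 and 55.3 CPM in members against 447 and 672 without Arg1, ratios of -3.29 (-3.79 to -2.85) and -3.58 (-4.02 to -3.21). Cxcl9, an interferon gamma-induced attractant of T cells, was at 182 and 372 CPM against 1219 and 2126, ratios of -2.74 (-2.99 to -2.51) and -2.51 (-2.68 to -2.35). The fractalkine receptor Cx3cr1 fell by 2.71 and 2.20, and Adgre1 and Aif1 of the macrophage list fell too (-1.22 and -1.77, and -1.36 and -1.20). Several of these genes are also active in dendritic cells, and the cDC1 list was lower in members, at 166 and 110 CPM against 529 and 692 in the cells without Arg1, with Xcr1 and Flt3 at 0 in members. The list of conventional type 2 dendritic cells stood at 307 and 310 CPM in members against 284 and 453. The part of dendritic cell transcripts in these falls was not tested.

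MHC class II genes, which present antigen to helper T cells, had a median ratio of members over cells without Arg1 of -0.39 in control, near the -0.26 of all genes, and of -1.21 in knockout. This is over 8 genes, of which Ciita, the regulator of the family, passed in both (-1.31 and -1.87). The median was -0.90 in knockout after thinning before the rule. Dendritic cells are rich in these genes, and 3 of 3 compared cDC1 genes fell with Arg1 in both libraries (medians of -1.47 and -2.03). Other dendritic cell lists did not follow. Of 4 compared genes of conventional type 2 dendritic cells (cDC2), 0 rose and 0 fell in both libraries (medians of 0.50 and -0.46). The 1 compared gene of migratory dendritic cells rose (1.76 and 1.99). The part of dendritic cell transcripts in the class II values was not tested. Cd74 stood at 8151 CPM with and 8767 without Arg1 in control, and at 7944 and 15232 in knockout. Interleukin 1 genes split, with Il1a (2.20 and 1.62) rising and Il1b (-1.15 and -1.04) falling. Of the 15 resident-type markers, Vsig4 was at 0 in members of both libraries, Lyve1 at 3 and 0 UMIs and Timd4 at 1 and 3. The list as a whole was not scarce. It summed to 2558 CPM with and 1620 without Arg1 in control, and to 1572 and 2409 CPM in knockout.

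Between the libraries, 237 of 7763 genes were higher past 2-fold in knockout members (3.05%) and 195 lower (2.51%), with a median of 0.00 over all genes. The comparison asks how these macrophages differed between tumours of control mice and of mice with Cre in Csf1r-expressing cells. The targeted gene could not check the labels, since Porcn (ENSMUSG00000031169, chromosome X, 8193848 to 8206525) had 2 UMIs in control and 0 in knockout members, which allows up to 2.77 CPM in knockout. Transcripts of a deleted allele may also still be caught at their 3′ end. Wls, which carries Wnt proteins to the cell surface, had 63 and 85 UMIs (log2 ratio 0.46). Of the 21 genes listed for Wnt ligands and secretion, 8 were detected and 1 could be compared. Of 9 compared Wnt receptors and target genes none passed in either direction, with a median of -0.59, Axin2 at 0 UMIs in both libraries, Tcf7l2 at -0.56 and Cd44 at -0.67.

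Interferon-stimulated genes stood out of this comparison. Of 27 genes of the type I interferon list, 18 were higher in knockout members and none lower, 27 had ratios above 0, and the median was 1.25. Among all genes 3.05% were higher. Ifi44 went from 49 to 241 UMIs, 44.1 to 222 CPM, a ratio of 2.31 (1.89 to 2.81). Ifit3, which binds other antiviral IFIT proteins, went from 45.9 to 193 CPM, a ratio of 2.05 (1.62 to 2.54). Oasl1, a regulator of Irf7 translation, went from 65.7 to 250 CPM, a ratio of 1.91 (1.55 to 2.32). Isg15, a ubiquitin-like modifier, went from 278 to 804 UMIs, or 250 to 741 CPM, a ratio of 1.56 (1.37 to 1.77). Irf7, the transcription factor that amplifies the response, went from 160 to 414 CPM, and Bst2 (tetherin) from 516 to 1098 CPM. Ifi27l2a was the most abundant of the list, at 548 and 1597 CPM. Cmpk2, Phf11d, Rsad2 (viperin), Oas1a, Rtp4, Oas2 and Xaf1 rose by 1.57, 1.49, 1.35, 1.34, 1.25, 1.17 and 1.13. Ifit1 rose by 1.20, but had 0.53 after thinning before the rule and 0.96 as a mean over cells, and Rsad2 had 0.75 with a stricter exclusion of T cell and keratin UMIs. Ifit3b (1.80), Ifi211 (1.43) and Ifi209 (1.28) have near-identical relatives, so their separate values are uncertain. Ifih1 and Zbp1 had the smallest ratios, 0.43 and 0.31.

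The same list differed less in the cells without Arg1. There 2 of 24 genes were higher (2.96% of all genes) and the median was 0.30, against -0.05 over all genes. Isg15 was at 175 and 213 CPM in those cells and Ifit3 at 65.6 and 65.8, while Ifi44 (1.56) and Oasl1 (1.98) passed. Summed, the list went from 3041 to 7430 CPM in members and from 2858 to 3645 CPM without Arg1. The sums of control cells with and without Arg1 lay near each other, and that of knockout members above both. Per cell, the list's median also rose without Arg1, from 1283 to 2481.5 CPM, against 1605 to 5194 CPM in members. The control cells without Arg1 include the 4 with fibroblast UMIs, whose part in these values was not tested. With 1 library per genotype the difference between these differences could not be tested. Ly6c2 monocytes, barcodes with at least 3 Ly6c2 UMIs and under 5 of C1q, had 18 of 27 genes higher, against 10.4% of all genes, with a median of 1.55 against 0.14 and a sum from 1271 to 3837 CPM. They numbered 76 in control and 287 in knockout, and no monocyte gene other than Ly6c2 was asked for. Whether their mix of cells differed between the libraries was not tested. In the same monocytes 14 of 22 interferon gamma genes were higher. T cells had 9 of 27 against 5.47% of all genes, with a median of 0.54 against -0.08. All filtered barcodes other than members had 4 of 27 against 12%, a share near the background. Their ratios were nevertheless above 0 for 27 of 27 genes, with a median of 0.56 against 0.01 and a sum from 2706 to 4193 CPM. Ratios were also above 0 for 27 of 27 genes in Ly6c2 monocytes, 24 of 27 in T cells and 16 of 24 in the cells without Arg1. The lists and cell groups set beside the members were chosen after values had been seen.

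**Figure D4:**
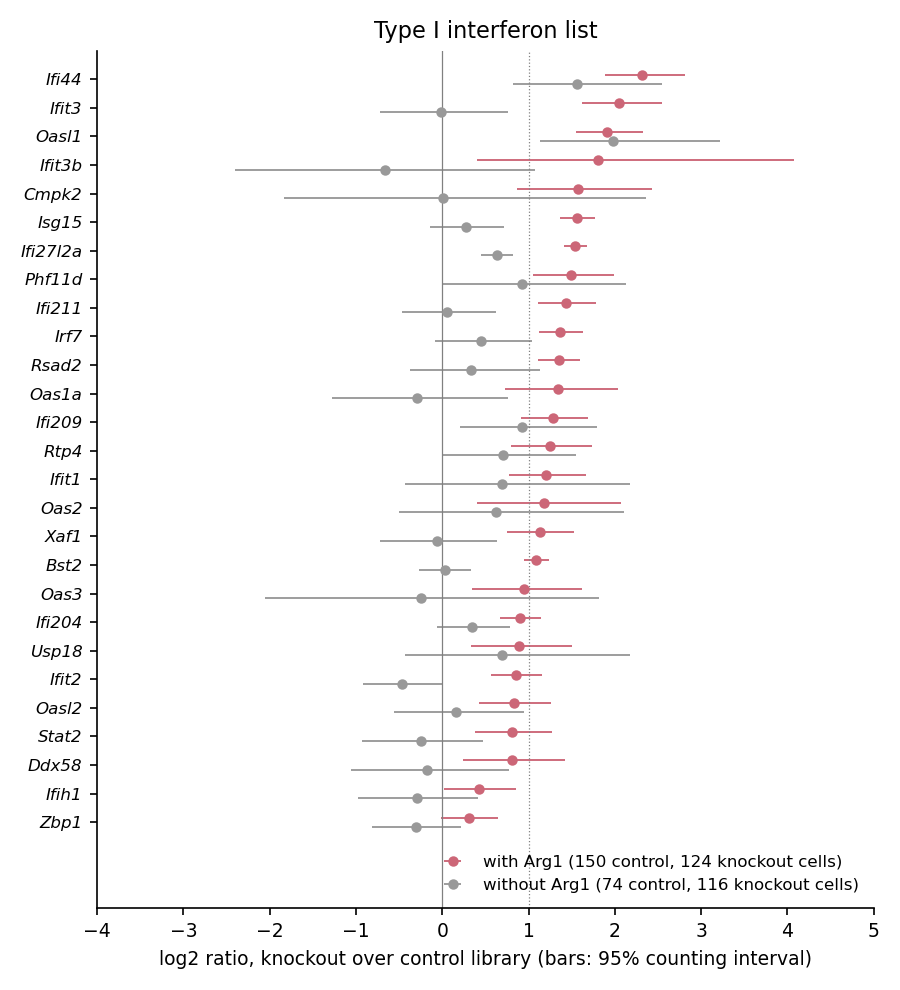
Log2 ratio of knockout over control for each gene of the type I interferon list, with 95% counting intervals, in members (150 control, 124 knockout cells) and in C1q macrophages without Arg1 (74 and 116). The 27 points for members lie above 0 and 18 of them past the dotted line at 2-fold; the points without Arg1 scatter around a median of 0.30 over the 24 genes with at least 20 UMIs there.

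The difference was spread over cells. The list's summed level had a median of 1605 CPM per control member and 5194 per knockout member, with middle 50% ranges of 855 to 3793 and 1908 to 11360, so the libraries overlapped. After thinning to 2000 UMIs the median member expressed 3 of the 27 genes in control and 6 in knockout. Members with at least 5 of them, a limit set after the values had been seen, numbered 44 of 139 in control (31.7%; 24.0 to 40.1) and 74 of 118 in knockout (62.7%; 53.3 to 71.4). Members with none were 10.1% and 6.78%. Isg15 was seen in 22.3% (15.7 to 30.1) and 49.2% (39.8 to 58.5) of thinned members, and Ifi44 in 7.91% and 33.1%. In T cells Isg15 was seen in 13.8% and 11.2% and Ifi44 in 0.625% and 2.45%. For Isg15, 12 knockout members held 50% of the UMIs and the highest cell 5.85%.

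**Figure D5:**
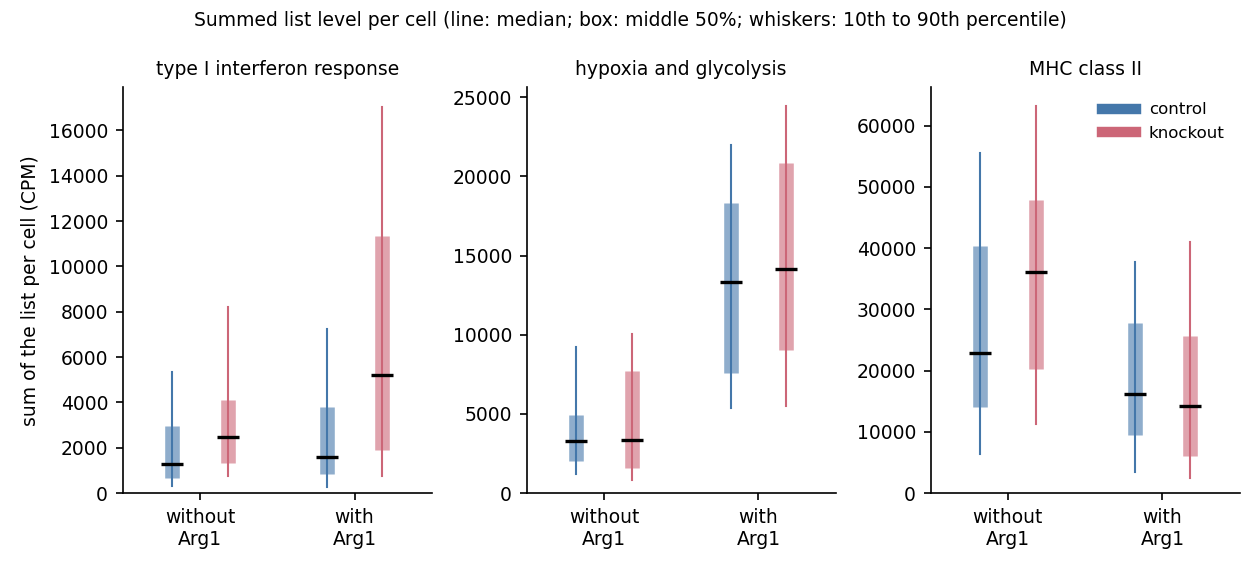
Summed level of the type I interferon, hypoxia and MHC class II lists per cell in CPM, for C1q macrophages without and with Arg1 in each library (line, median; box, middle 50%; whiskers, 10th to 90th percentile). Knockout members reached a median of 5194 CPM of the type I list against 1605 in control members, while the hypoxia medians of members were 13330 and 14145.

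Promoters of the interferon genes were searched for GAAA followed by any 2 bases and another GAAA, the core of the interferon-stimulated response element, on both strands of the same 300 base windows, with overlapping matches counted. It was found for 8 of the 15 rising type I genes that had a promoter in the RefSeq table (53.3%; 18 rose), against 3.99% of all genes and 4.51% of the genes compared. Of the 6 other list genes with a promoter 4 held it. ACGTG was found for 0 of those 15 genes, and the interferon motif for 1 of the 19 hypoxia genes. The motifs were chosen after the lists' values had been seen, and type I genes are known for this element. Ifit1, Isg15 and Rsad2 are printed because they rose and differ in the number and strand of matches. They lie on GRCm38.p6 at chr19:34640689-34640888 (plus strand), chr4:156200819-156201018 (minus) and chr12:26456453-26456652 (minus), with matches in capitals.
Ifit1: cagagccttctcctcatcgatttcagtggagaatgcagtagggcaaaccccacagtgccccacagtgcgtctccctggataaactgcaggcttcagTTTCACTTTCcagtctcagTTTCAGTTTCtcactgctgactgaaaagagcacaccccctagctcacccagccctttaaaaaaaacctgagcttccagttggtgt
Isg15: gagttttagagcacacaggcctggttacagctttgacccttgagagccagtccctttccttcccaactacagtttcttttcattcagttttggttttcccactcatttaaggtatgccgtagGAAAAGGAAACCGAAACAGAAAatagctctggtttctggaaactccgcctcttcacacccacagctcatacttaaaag
Rsad2: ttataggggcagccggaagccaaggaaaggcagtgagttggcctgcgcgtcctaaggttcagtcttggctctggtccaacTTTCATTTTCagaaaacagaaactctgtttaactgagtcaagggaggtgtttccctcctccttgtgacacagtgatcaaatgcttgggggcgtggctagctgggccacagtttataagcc

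Interferon gamma genes moved less as a group. Of 22 compared, 5 were higher and none lower, with a median of 0.23. These were Gbp2b (1.66), Cxcl10 (1.22), the feedback inhibitor Socs1 (1.14), the Fc receptor Fcgr1 (1.04) and Cxcl9 (1.03). Gbp2b has close relatives in its cluster and its value is uncertain. Cxcl9 had ratios of 0.57 with an Arg1 limit of 5 UMIs and 0.94 without the 2 cells with fibroblast UMIs. Cxcl10 went from 123 to 288 CPM, with 50% of its UMIs in 3 control and 4 knockout cells. Class I presentation genes did not pass, with a median of 0.24 over 17 genes, H2-T22 the largest at 0.96 and B2m at 0.06. Class II genes did not rise: 8 compared genes had a median of -0.18, none was above 0 and H2-DMb2, with 18 and 6 UMIs, fell by 1.40. In the cells without Arg1 the class II median was 0.63 and in Ly6c2 monocytes 1.63, where all 10 genes passed (10.4% of all genes).

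Among genes with at least 30 UMIs and at most 25% of them in 1 cell, the largest rise was that of Ly6c2, a surface antigen of inflammatory monocytes (ENSMUSG00000022584, chromosome 15, 75108158 to 75111970). It went from 9 UMIs in 5 control members to 146 in 27 knockout members, 8.10 to 135 CPM, a ratio of 3.91 (3.09 to 5.21). Few members were positive in either library, and after thinning 2.16% and 14.4% were. In the cells without Arg1 the ratio was 2.22, and the Ly6c2 UMIs of the whole filtered libraries went from 1948 to 8673. T cells held 139 and 109 CPM, as T cells also express the gene, so the knockout members' level was near theirs. Ms4a4c, a membrane protein of monocytes, rose from 121 to 387 CPM (1.68). Vcan, S100a4 and Fn1 of the same monocyte list had ratios of -1.48, -1.11 and -1.06, and Ccr2 had -0.11. For S100a4 1 control cell held 42.8% of the UMIs, and without the highest cell of each library its ratio was -0.47. The monocyte list as a whole had 3 higher, 3 lower and a median of -0.11 over 11 genes.

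The other largest rises under these limits were Ifi213 (2.70), Ank2 (2.65), Ifi44, Nav2 (2.08), Ifit3, Ifi206 (2.02), Ifi205 (1.97), Sirpb1a (1.92) and Oasl1. Ifi213, Ifi206 and Ifi205 belong with Ifi204 to the Ifi200 cluster of DNA sensors on chromosome 1, whose close copies share sequence, so their order is uncertain, as is the value of Sirpb1a, which also has close copies. Ank2 (ankyrin B) had 7 and 48 UMIs and Nav2, a neuron navigator, 8 and 36. Both were higher in control cells without Arg1 (34.0 and 43.7 CPM) than in control members (6.30 and 7.20 CPM). Those cells without Arg1 include the 4 that held 2975 of the 3007 fibroblast UMIs, whose part in these values was not tested. The largest falls under these limits were Tenm4 (-2.16), Clec1b (-1.92), Cd24a (-1.85), Spint1 (-1.84), Mrps6 (-1.84), Dstyk (-1.77), Sox4 (-1.69), Lsr (-1.66), Sorl1 (-1.64) and Saa3 (-1.59). Cd24a, Spint1, Sox4 and Lsr are known from epithelium, and the epithelial list went from 238 to 137 CPM in members. Its part in these falls was not tested. Saa3, an acute-phase apolipoprotein, went from 230 to 75.6 CPM in members, and its UMIs in all filtered barcodes from 26507 to 1747. The T cell barcodes, which had no keratin limit, held Saa3 at 294 and 3.26 CPM. Tenm4 had -0.95 with the stricter exclusion and -0.77 after thinning, and Lsr -0.77 after thinning.

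Of the genes that rose most with Arg1, Mmp12, Spp1, Slc7a2, Mmp13, Nos2 and Ccl24 were lower in knockout members and Inhba higher, each by less than 2-fold. Mmp12 went from 3748 to 2444 CPM (-0.62; -0.69 to -0.55), Spp1 from 4930 to 2758 (-0.84; -0.90 to -0.77), Slc7a2 from 858 to 568 (-0.59) and Mmp13 from 959 to 693 (-0.47). Spp1 passed at -1.10 as a mean over cells. Inhba (0.39), Nos2 (-0.30) and Ccl24 (-0.43) did not pass. Hypoxia genes had a median of 0.10 over 23 genes, and Egln3 alone passed, from 184 to 67.3 CPM (-1.44; -1.86 to -1.06). The chemokine list had 3 higher (Ccl5 with 1.49, Cxcl10 and Cxcl9) and 2 lower of 19. The 2 were Cxcl3, a neutrophil attractant, with 38 and 12 UMIs (-1.55), and Pf4, platelet factor 4, which macrophages also make, from 1190 to 552 CPM (-1.11; -1.25 to -0.97). Among other listed genes the chemerin-binding receptor Ccrl2 rose by 1.79 and the lipoprotein gene Apoc2 by 1.57. Mfge8, a bridge to dying cells, had 1.12 with 46.3% of its knockout UMIs in 1 cell, and 0.60 without the highest cell of each library. Nt5e (CD73) fell by 1.26, the costimulatory ligand Cd80 by 1.09 and the lectin Clec10a by 1.39. Ctsk, a collagen-degrading protease, had -2.00, with 74.6% of its control UMIs in 1 cell, and +0.78 after thinning.

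Chil3 and Retnla, genes of alternative activation, had their UMIs in few cells. Chil3 went from 2249 to 4758 CPM (1.08; 1.01 to 1.15), was seen in 41 of 150 and 31 of 124 members, and 2 cells held 50% of its UMIs in each library. Its ratio was -0.10 with the stricter exclusion of T cell and keratin UMIs and 0.95 as a mean over cells, so no direction is read from it. Retnla went from 219 to 725 CPM (1.72), in 14 and 16 cells, and had 0.55 as a mean over cells. Immediate-early and heat shock genes, which tissue dissociation can induce, had a median of 0.47 over 19 genes. That was close to the 0.57 of cells without Arg1, 0.51 of Ly6c2 monocytes and 0.49 of T cells, and Egr1 (1.10) alone passed. Median mitochondrial shares of members were 1.29% and 0.882%. Whether depth, dissociation or mitochondrial share took part in the differences between libraries was not tested.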

How the data were processed

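The authors deposited 1 filtered UMI count matrix per library, with 32285 genes, not normalized. The file headers name Cell Ranger 8.0.0, while the submitters' processing notes name Cell Ranger 3.1.3 and mm10. Which of them made the counts is not settled. Members, comparison cells and gene lists were chosen with earlier results of these data known. UMIs were summed over cells per library in Python 3.11.15 (numpy 2.4.6, pandas 2.3.3, scipy 1.17.1, matplotlib 3.10.9). T cells had at least 3 UMIs of the rule's T cell genes, with no limit on keratin or C1q UMIs. Ly6c2 monocytes also met the rule's T cell and keratin limits. Doublets were called with Scrublet in scanpy 1.11.5 at an expected rate of 0.08, which marked 148 control and 341 knockout barcodes, and were kept. Thinning used random seed 1. The genes named were the markers, list genes past 2-fold, and the 10 largest rises and falls of each comparison. Between libraries these needed at least 30 UMIs and at most 25% of them in 1 cell. With over without Arg1 they needed at least 20 UMIs in each library and at most 25% in 1 cell in each. Genes and values given beyond this rule, such as those of the shares and the spread over cells, were chosen after their values had been seen. The sums and ratios were tested on simulated data. Gene positions follow GENCODE M21 on GRCm38. Clec7a and Mx1 were not used here. Some list genes are not reported here. Each group is 1 pooled library, so no test between genotypes was possible.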

Additional observations from a re-analysis of the deposited data

How the results depend on the processing

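No paired analysis was possible because each group has 1 library, and for the same reason no replicate could be left out. Over 14 alternatives, of which 1 was added after seeing the data (cells with more than 5 fibroblast UMIs left out), the type I interferon median between libraries stayed between 1.09 and 1.27, and the hypoxia medians with over without Arg1 between 1.53 and 1.91 in control and between 1.43 and 1.86 in knockout. The ratio of member shares among filtered barcodes ran from 0.746 to 0.978 over 9 alternatives, and that among C1q cells from 0.637 to 0.799. Counts of genes moved more. In place of 7763 genes, 2864 were compared after thinning before the rule, 5042 with a minimum of 50 UMIs and 14950 with a minimum of 1 UMI. Genes higher in knockout members (237) became 112, 89 and 2362 in that order. Genes lower in knockout members (195) became 51 with at least 50 UMIs and 1017 with at least 1 UMI, 95 with a pseudocount of 5 UMIs, and 368 as a mean over cells. Genes higher with Arg1 in both libraries (203) became 101 after thinning. Genes lower with Arg1 (345) became 121 after thinning, 175 with at least 50 UMIs, 1333 with at least 1 UMI and 190 with median-of-ratios scaling. Direction turned for Chil3 with the stricter exclusion of T cell and keratin UMIs (-0.10) and for Ctsk after thinning (0.78). The cause was not tested. Leaving out the member with the most UMIs of a gene in each library, also added after seeing the data, ended the calls of Cxcl9 (0.96), S100a4 (-0.47), Mfge8 (0.60), Serping1 (0.63) and Ctsk (-0.48). Of single genes, Arg1 (-1.02) and Ccl6 (-1.03) passed 2-fold with the stricter exclusion. With Arg1, the control median of the matrix protease list (0.43) was 1.50 without cells with fibroblast UMIs, and that of the iron and heme list (1.05) was 0.95. Depth limits the genes with few UMIs, whose intervals are wide (Ly6c2 3.09 to 5.21, Tenm4 -3.89 to -1.05).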

Other observations

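Chil3-positive members differed from the remaining members in other genes, in both directions. The pairs were chosen after their values had been seen and are a description. In cells thinned to 2000 UMIs, Mmp13 was seen in 54.5% of 33 Chil3-positive control members and 28.3% of the other 106, and in 60.0% of 25 and 18.3% of 93 in knockout. Retnla, a secreted protein of alternative activation, was seen in 15.2% against 5.66% in control and 40.0% against 3.23% in knockout. Rnase2a, an eosinophil-associated ribonuclease, was seen in 21.2% against 5.66% and in 56.0% against 7.53%. Mmp12 was seen in 78.8% against 56.6% and in 88.0% against 35.5%. Nos2 differed little, with 33.3% against 29.2% in control and 9 of 25 cells against 25.8% in knockout. Cxcl9 went the other way, with 3.03% against 15.1% in control and 2 of 25 cells against 24.7% in knockout, as did Isg15 in control (12.1% against 25.5%) but not in knockout (52.0% against 48.4%). Ly6c2 was seen in 0 of the 25 Chil3-positive knockout members and in 18.3% of the other 93, and Isg15 in 82.4% of 17 Ly6c2-positive knockout members against 43.6% of 101. Cells with more captured genes are counted in every pair, and thinning keeps the depth equal but not the quality of the cells.

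Iron and heme genes were abundant in members, mostly through the ferritins Fth1 and Ftl1. The list summed to 28666 CPM in control members and 41082 CPM in knockout members. Its median log2 ratio between libraries was 0.12 over 9 genes. Per cell the list had a median of 18993 CPM in control and 30040 CPM in knockout, against 10211 and 13745 CPM in cells without Arg1. Fth1, the ferritin heavy chain, stood at 18788 and 27144 CPM and Ftl1, the light chain, at 8176 and 12407 CPM, and neither passed 2-fold between libraries (0.53 and 0.60).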
